A study of Mus musculus with 9 samples.

Results

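The genes described here are the Toll-like receptors Tlr1, Tlr2, Tlr3, Tlr4, Tlr6, Tlr7, Tlr8, Tlr9 and Tlr13 and the adaptor Myd88, measured by RNA-seq in CD11b+ cells from mouse gliomas. They are 10 of the 53801 genes in the deposited count table, found by matching Ensembl identifiers to these mouse symbols. Toll-like receptors are innate sensors of microbial and endogenous molecules. Tlr1, Tlr2, Tlr4 and Tlr6 act at the cell surface on lipopeptides and lipopolysaccharide, whereas Tlr3, Tlr7, Tlr8, Tlr9 and Tlr13 sit in endosomes and bind nucleic acids. All of them except Tlr3 signal through Myd88, which leads to NF-κB and to cytokine genes, and microglia and macrophages are among the cells known to carry them in the brain.

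The mice were male C57BL/6J animals, 10 to 12 weeks old at the start, with GL261 glioma cells that carry tdTomato and luciferase implanted in the right striatum. Controls (CTR, 2 libraries) received vehicle by gavage. The OAT-1746 group (2 libraries) received this oral inhibitor of arginase 1 and arginase 2 at 50 mg/kg, 2 times a day from day 1. The anti-PD-1 group (2 libraries) was injected with the checkpoint antibody on days 8, 10, 12 and 14, at 2.5 mg/kg each time, and the COMB group (3 libraries) received both agents. For anti-PD-1 replicate 2 the treatment label reads anti-PD-2, and this library was grouped by its title. CD11b+ cells were sorted from the tumor-bearing hemisphere on day 28 by the study's methods, or on day 21 by a figure legend. CD11b is an integrin of myeloid cells that some NK cells also carry, and marker lists for the cell types the sort could hold, border-associated macrophages (BAM) among them, are given with the results. The methods call the libraries biological replicates and give no number of mice for each, so p-values measure the spread between these libraries.

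Between 13048075 and 18796479 read pairs were counted per library. Levels are given as FPKM, that is TMM-normalized CPM divided by the length of all exons of a gene in kilobases, so that genes can be compared with each other. Differences are log2 fold changes from edgeR's quasi-likelihood fit of all 9 libraries, with a standard error (SE). Genes are named as called where the p adjusted by Benjamini and Hochberg's method over all 12538 protein-coding genes tested was under 0.05. All 10 genes passed the low-count filter, and the lowest count of any of them was 312 (Tlr8 in OAT-1746 replicate 2).

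OAT-1746 replicate 2 stood apart from the other libraries. Its log2 CPM over the tested genes had a Pearson r of 0.911 to 0.956 with the other 8 libraries, which had 0.960 to 0.989 among themselves. Its median absolute log2 difference from the CTR mean was 0.586, against 0.316 in OAT-1746 replicate 1. Values without it are therefore given beside many results. Other single libraries are named beside values that moved by over 1.5 times on the log2 scale without them.

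The sort was checked on marker lists. Itgam, Csf1r, Ptprc and Aif1 were detected in every library, with a summed level of 1388 to 2210 FPKM. Microglial genes were the most abundant cell type list: all 10 had more than 3 counts in every library. Their sum was 5260 and 8355 FPKM in CTR, 10983 and 13686 in OAT-1746, 7980 and 6367 in anti-PD-1, and 9705, 7382 and 6933 in COMB. Monocyte and macrophage genes, also 10 of 10 and led by Tgfbi, summed to 3012 and 3381 FPKM in CTR, 2850 and 401 in OAT-1746, 3844 and 3999 in anti-PD-1, and 2431, 3639 and 3628 in COMB. The 2 OAT-1746 libraries were thus the highest for the microglial list, and OAT-1746 replicate 2 was the lowest for the monocyte list.

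**Figure D1:**
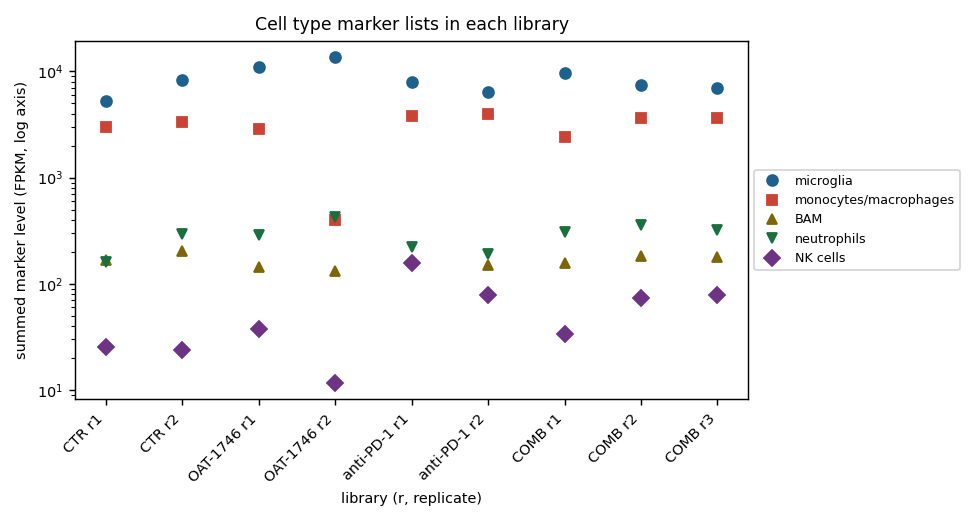
Summed level of the marker genes of 5 cell types in each library (FPKM, log axis), 1 symbol per list and library. Monocyte and macrophage genes lie at 401 FPKM in OAT-1746 replicate 2 and between 2431 and 3999 in the other 8 libraries.

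Tlr2, which recognizes bacterial lipopeptides together with Tlr1 or Tlr6, had the highest level of the 10 genes. Its mean over the 9 libraries was 176 FPKM, in the 97.7th percentile of the tested genes. The endosomal DNA sensor Tlr9 followed with 112 FPKM, the single-stranded RNA sensor Tlr7 with 94.98, and Tlr13, a sensor of bacterial ribosomal RNA, with 90.0. Myd88 had a mean of 73.9 FPKM and Tlr1 of 34.3. The double-stranded RNA sensor Tlr3 (23.0 FPKM), the lipopolysaccharide receptor Tlr4 (20.2), Tlr8 (14.95) and Tlr6 (14.2) had the lowest levels of the 10, and Tlr6 was in the 75.7th percentile of the tested genes. Neighbors in this order mostly overlapped. Tlr2 exceeded Tlr9 in 8 of 9 libraries, and Tlr9 exceeded Tlr7 in 7 of 9. Tlr7 and Tlr13 were in this order in 5 of 9 libraries, as were Tlr8 and Tlr6. Myd88 was above Tlr1 in 9 of 9 libraries, although its lowest library (39.3 FPKM) was below the highest of Tlr1 (42.4). With the longest coding length in place of all exons, a choice added after seeing the data, Myd88 (214 FPKM) came directly after Tlr2 (225) and before Tlr13 (130), Tlr9 (125) and Tlr7 (123), and Tlr4 came before Tlr3 and Tlr6 before Tlr8, so that the order depends on the length used. The widest range belonged to Tlr8, at 4.18 times between its highest and lowest library, and the narrowest to Tlr13, at 1.43 times.

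**Figure D2:**
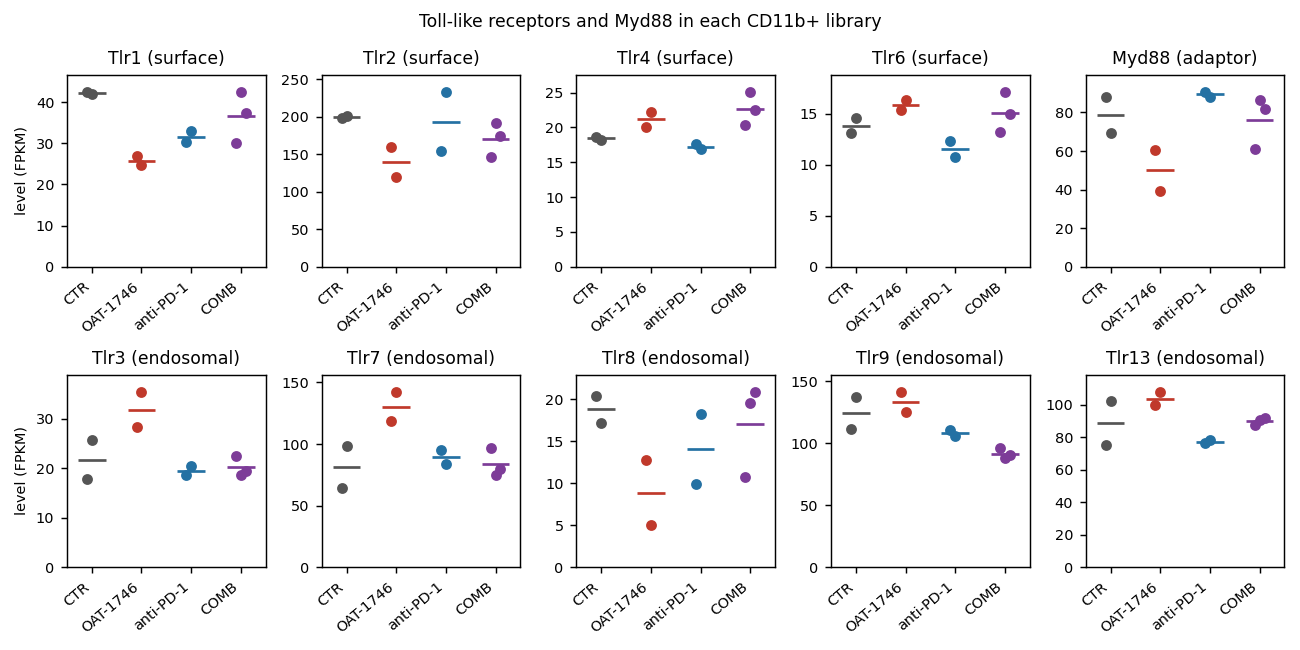
Level of each gene (FPKM, linear axis from 0) in every library, 1 point per library with a bar at the group mean. Tlr1 is at 26.8 and 24.8 FPKM in the OAT-1746 libraries, below both CTR libraries at 42.3 and 42.0.

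Tlr1 (ENSMUSG00000044827, chr5:64924679-64933563, minus strand, GRCm38) and Tlr6 (ENSMUSG00000051498, chr5:64952031-64960097, minus strand) are neighboring paralogs that share sequence. Of the 3332 stretches of 50 bases in the annotated Tlr1 transcripts, 454 (13.6%) also occur in Tlr6, which is 12.3% of those of Tlr6. With all other genes counted, Tlr1 shared 512 stretches (15.4%) with 158 genes, Tlr6 among them, and Tlr6 shared 456 with 2 genes. A read pair that lies wholly inside shared sequence would map to both genes. The mapping quality of 10 or more that the authors asked for leaves such a pair out of both counts. Pairs with a mate outside the shared sequence can be placed, so these percentages are not the share of read pairs lost. The longest identical run in their longest transcripts has 229 bases and is coding in both genes, at chr5:64925537-64925765 in Tlr1 and chr5:64953828-64954056 in Tlr6. It is shown, in the direction of transcription, because it is the longest run in which these transcripts of the pair cannot be told apart:
Tlr1 and Tlr6: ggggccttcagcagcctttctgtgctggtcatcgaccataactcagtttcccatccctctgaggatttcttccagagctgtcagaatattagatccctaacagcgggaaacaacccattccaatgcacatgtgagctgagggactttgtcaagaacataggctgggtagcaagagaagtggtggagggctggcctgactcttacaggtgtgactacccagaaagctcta
Tlr2, Tlr3, Tlr7, Tlr8, Tlr9, Tlr13 and Myd88 shared 0 such stretches with the annotated transcripts of other genes, and Tlr4 shared 1 of 5551. On the annotation, Tlr3 overlaps a gene on the opposite strand, and Myd88 overlaps Acaa1a on the opposite and Slc22a14 on the same strand. The libraries were stranded, so that reads of an opposite gene were counted apart.

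The classes were compared as sums. Surface receptors added up to 274 ± 2.56 FPKM (SD, n = 2) in CTR, 203 ± 27.5 (n = 2) in OAT-1746, 254 ± 56.4 (n = 2) in anti-PD-1 and 246 ± 33.1 (n = 3) in COMB. Endosomal receptors added up to 335 ± 65.3, 408 ± 10.2, 309 ± 3.29 and 303 ± 11.3 FPKM in the same order. The surface class made up 48.5% and 42.0% of the sum of both classes in CTR, 35.7% and 30.6% in OAT-1746, 40.7% and 48.9% in anti-PD-1, and 40.2%, 48.7% and 45.1% in COMB. The 2 OAT-1746 libraries therefore had the lowest surface shares of the 9, and the other 3 groups overlapped. Without OAT-1746 replicate 2 the share in that group was 35.7%. With coding length the mean share was 46.6% for CTR, 34.7% for OAT-1746 and 46.1% for both anti-PD-1 and COMB. In percentage points, the shares of Tlr2 and Tlr7 differed most: Tlr2 made up 35.3% and 30.6% of the summed receptors in CTR and 25.7% and 20.1% in OAT-1746, and Tlr7 made up 11.4% and 15.01% in CTR and 19.1% and 23.7% in OAT-1746. These shares are a description with no test. The microglial sum was highest in the same 2 OAT-1746 libraries and the monocyte sum lowest in replicate 2, and their part in the shares was not tested. In bulk RNA, fewer cells of a type and less RNA per cell cannot be told apart.

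**Figure D3:**
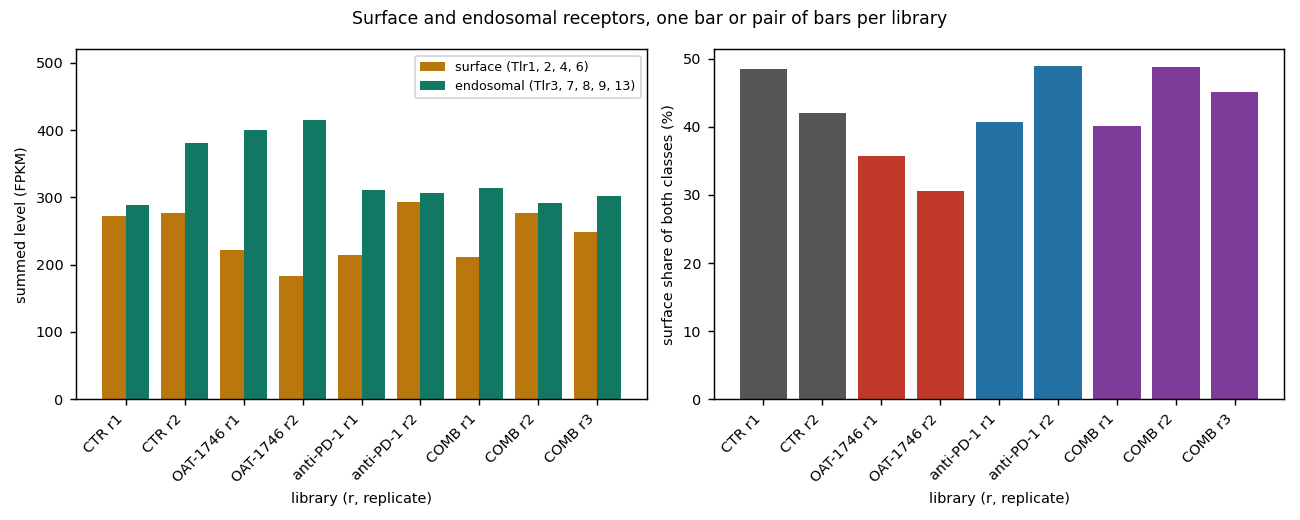
Summed FPKM of the 4 surface and the 5 endosomal receptors (left) and the surface share of both classes in percent (right), 1 bar or pair of bars per library. The OAT-1746 libraries are at 35.7% and 30.6%, and the other 7 libraries between 40.2% and 48.9%.

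The comparison of OAT-1746 with CTR asks what the arginase inhibitor alone did. The split of the genes did not follow the classes: Tlr1, Tlr2, Tlr8 and Myd88 had lower means in OAT-1746, and Tlr3, Tlr7 and, by less, Tlr4, Tlr6, Tlr9 and Tlr13 had higher ones. In edgeR 0 of the 10 genes were called, against 0% of all tested genes. At an unadjusted p under 0.05, 2 of the 10 were higher and 3 lower, against 16.1% and 16.2% of the tested genes. DESeq2 called Tlr1 and no other of the 10, against 16.3% of the genes it tested. Of the 10 genes, 4 had all their OAT-1746 libraries above and 4 below both CTR libraries, against 30.8% and 32.1% of the tested genes. The median log2 fold change was -0.16 for the 4 surface receptors and 0.22 for the 5 endosomal ones, beside 0.01 for all tested genes.

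Among the surface receptors, Tlr1 stood at 42.3 and 42.0 FPKM in CTR, 26.8 and 24.8 in OAT-1746, 30.2 and 32.9 in anti-PD-1, and 30.2, 42.4 and 37.3 in COMB. Both OAT-1746 libraries were lower than every library of the other groups. Its log2 fold change against CTR was -0.71 (SE 0.18, 95% interval -1.11 to -0.31, edgeR adjusted p = 0.0668, DESeq2 adjusted p = 0.00804). Without OAT-1746 replicate 2 it was -0.64. Tlr2 (ENSMUSG00000027995, chr3:83836272-83841767, minus strand) had 198 and 201 FPKM in CTR, 160.1 and 120.0 in OAT-1746, 154 and 233 in anti-PD-1, and 147, 192 and 174 in COMB. Both CTR libraries were above both OAT-1746 libraries, and the anti-PD-1 libraries lay on either side of CTR. The fitted difference was -0.51 (SE 0.24, edgeR adjusted p = 0.173), and -0.31 without OAT-1746 replicate 2. Tlr4 (chr4:66827584-66930284) and Tlr6 had log2 fold changes of 0.20 each (edgeR adjusted p = 0.367 and 0.406).

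Of the endosomal receptors, Tlr7 (ENSMUSG00000044583, chrX:167304929-167330558, minus strand) had 64.1 and 98.7 FPKM in CTR, 119 and 142 in OAT-1746, 95.4 and 84.1 in anti-PD-1, and 97.2, 74.9 and 79.6 in COMB. The OAT-1746 libraries were the highest of the 9, and the CTR libraries differed from each other by 1.54 times. The log2 fold change was 0.68 (SE 0.24, 95% interval 0.15 to 1.21, edgeR adjusted p = 0.0964). It was 0.56 without OAT-1746 replicate 2 and ranged from 0.41 without CTR replicate 1 to 1.02 without CTR replicate 2. Tlr3 (ENSMUSG00000031639, chr8:45395665-45411080, minus strand) also had its highest values in OAT-1746, with 17.7 and 25.6 FPKM in CTR, 28.4 and 35.4 in OAT-1746, 18.7 and 20.4 in anti-PD-1, and 22.4, 18.6 and 19.5 in COMB. Its difference from CTR was 0.56 (SE 0.21, edgeR adjusted p = 0.109), 0.40 without OAT-1746 replicate 2, 0.33 without CTR replicate 1 and 0.84 without CTR replicate 2.

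Tlr8 (ENSMUSG00000040522, chrX:167242696-167264329, minus strand) lies beside Tlr7 and went the other way. It had 20.3 and 17.2 FPKM in CTR, 12.8 and 4.98 in OAT-1746, 9.89 and 18.3 in anti-PD-1, and 10.7, 19.6 and 20.8 in COMB. The lowest library was OAT-1746 replicate 2, and 1 library each of anti-PD-1 and COMB was below OAT-1746 replicate 1. The log2 fold change of OAT-1746 against CTR was -1.08 (SE 0.47, edgeR adjusted p = 0.147), -0.54 without OAT-1746 replicate 2 and -1.92 without replicate 1. Tlr9 (0.10, SE 0.17) and Tlr13 (0.22, SE 0.18) had edgeR adjusted p-values of 0.692 and 0.402. Tlr9 was at 0.20 without OAT-1746 replicate 2, 0.0080 without replicate 1, 0.25 without CTR replicate 2 and, with its sign turned, -0.032 without CTR replicate 1. Tlr13 was at 0.027 without CTR replicate 1 and 0.45 without CTR replicate 2. Myd88 (ENSMUSG00000032508, chr9:119335934-119341411, minus strand), the shared adaptor, had 88.1 and 69.4 FPKM in CTR, 60.8 and 39.3 in OAT-1746, 90.6 and 88.1 in anti-PD-1, and 60.8, 86.3 and 81.8 in COMB. COMB replicate 1 was thus as low as OAT-1746 replicate 1. The difference of OAT-1746 from CTR was -0.65 (SE 0.25, edgeR adjusted p = 0.115), -0.36 without OAT-1746 replicate 2 and -1.01 without replicate 1.

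The directions of all 10 genes held with either OAT-1746 library left out, and the calls depended on the library. Without replicate 1, which leaves replicate 2 as the only OAT-1746 library and assumes that it varies like the other groups, edgeR called 5 of the 10 genes (Tlr1, Tlr8 and Myd88 lower, Tlr3 and Tlr7 higher), against 28.2% of the tested genes. Without replicate 2 it called 0. Over all alternatives the adjusted p ran from 0.00804 to 0.282 for Tlr1, 0.0451 to 0.426 for Tlr3, 0.0476 to 0.375 for Tlr7, 0.0164 to 0.535 for Tlr8 and 0.0195 to 0.478 for Myd88. In the same comparison, 10 of 10 microglial genes had an unadjusted p under 0.05 and were higher (median log2 fold change 0.93), and 3 of 10 monocyte and macrophage genes were lower at that level (median -0.77), against 16.1% and 16.2% of all tested genes. Of the neutrophil genes 8 of 9 were higher (median 0.76), 4 of them at that level. DESeq2 called 8 of the 10 microglial genes and 1 neutrophil gene (Csf3r) higher, against 16.3% of its genes called in either direction. It called 2 of the 10 monocyte and macrophage genes (Ccr2 and Tgfbi) lower. How far these cell types account for the receptor values was not tested.

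**Figure D4:**
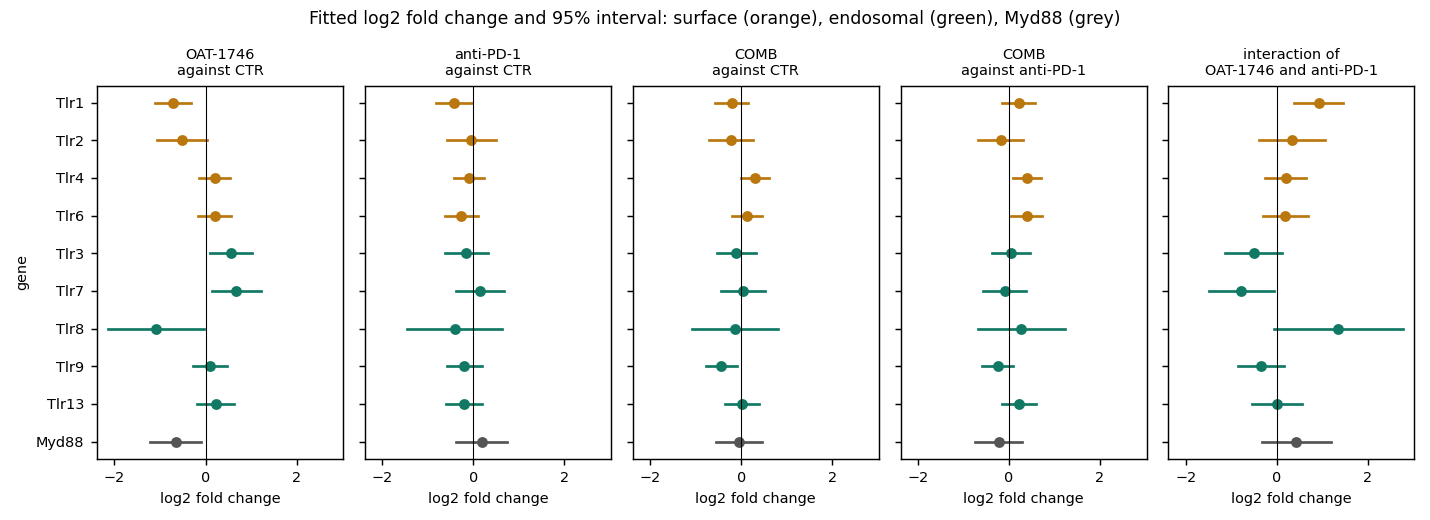
Fitted log2 fold change of each gene (point) with its 95% interval (line) in the 5 comparisons, surface receptors in orange, endosomal receptors in green and Myd88 in grey. In OAT-1746 against CTR, Tlr1 at -0.71 and Tlr7 at 0.68 lie on opposite sides of 0.

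Tlr1, Tlr2, Tlr8 and Myd88 were the 4 genes with each CTR library above each OAT-1746 library (32.1% of the tested genes had this), and Tlr3, Tlr4, Tlr6 and Tlr7 the 4 with each below (30.8%). The sequence before the start sites of Tlr1, Tlr8 and Myd88 is shown to let a reader compare them, with that of Tlr9, whose groups overlapped. The windows of Tlr2 and of the other members are given by their motif counts alone. RefSeq promoters were given for 8 of the 10 genes (GRCm38.p6), and the windows are the 250 bases before the start. Capitals mark the motifs searched on both strands. These were GAAA followed after 2 bases by GAAA, as in interferon-stimulated response elements, GGG followed after 3 bases by TTCC (NF-κB-like), GAGGAA (the core bound by PU.1, a factor of myeloid cells) and TGANTCA (AP-1), where N is any base. In the Tlr8 window the match is on the other strand and reads TTCCTC. The windows lie at chr5:64933559-64933808 (Tlr1), chrX:167264330-167264579 (Tlr8) and chr9:119340019-119340268 (Myd88) on the minus strand, and at chr9:106222348-106222597 (Tlr9) on the plus strand:
Tlr1: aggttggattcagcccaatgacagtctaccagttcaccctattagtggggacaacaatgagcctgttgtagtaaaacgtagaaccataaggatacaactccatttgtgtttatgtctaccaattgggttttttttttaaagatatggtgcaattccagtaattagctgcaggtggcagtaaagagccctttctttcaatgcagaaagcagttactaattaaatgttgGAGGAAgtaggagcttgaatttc
Tlr8: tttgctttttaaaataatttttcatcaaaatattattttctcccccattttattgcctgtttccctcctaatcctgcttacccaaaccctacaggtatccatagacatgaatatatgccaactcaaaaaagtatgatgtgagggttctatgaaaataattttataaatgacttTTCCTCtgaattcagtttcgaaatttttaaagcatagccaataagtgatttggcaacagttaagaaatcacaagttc
Myd88: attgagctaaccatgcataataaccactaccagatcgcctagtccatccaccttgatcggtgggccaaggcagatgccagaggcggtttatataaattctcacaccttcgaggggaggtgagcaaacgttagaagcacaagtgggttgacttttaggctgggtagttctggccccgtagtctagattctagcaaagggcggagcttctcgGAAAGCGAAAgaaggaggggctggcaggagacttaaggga
Tlr9: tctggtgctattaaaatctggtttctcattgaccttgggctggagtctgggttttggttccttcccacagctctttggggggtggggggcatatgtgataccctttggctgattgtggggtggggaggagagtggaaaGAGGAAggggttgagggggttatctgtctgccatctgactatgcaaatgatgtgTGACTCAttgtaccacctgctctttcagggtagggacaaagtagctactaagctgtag
The Tlr1 and Tlr8 windows each held 1 GAGGAA and the Myd88 window 1 GAAA pair. The Tlr9 window held 1 GAGGAA and 1 TGANTCA. Over 32851 promoter windows of the same length, GAGGAA occurred in 23.3%, the GAAA pair in 2.98%, the NF-κB-like motif in 4.65% and TGANTCA in 6.75%. Of the windows not shown, those of Tlr2 and Tlr3 held 1 NF-κB-like motif each and none of the other motifs. A second Tlr1 window held 0 motifs, the Tlr6 windows held 2 overlapping GAAA pairs and 1 NF-κB-like motif, and that of Tlr13 held 1 GAGGAA. By GENCODE's annotation the RefSeq start lies inside the gene by 1393 bases for Myd88, 700 for Tlr3, 159 for Tlr2 and 71 for Tlr13. It lies inside by 5 bases for the Tlr1 window shown, 864 for the second, and 931 and 49 for the Tlr6 windows. For Tlr8 and Tlr9 the distance is 0. A match is a run of letters and does not show that a factor was bound.

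The comparison of anti-PD-1 with CTR asks what the antibody alone did. Tlr1 had the smallest unadjusted p of the 10 genes (0.0413), with a log2 fold change of -0.42 (SE 0.18, edgeR adjusted p = 0.951). Tlr6 was at -0.26 (SE 0.16, and -0.17 without anti-PD-1 replicate 2) and Myd88 at 0.18 (SE 0.25, 0.36 without CTR replicate 1 and 0.015 without CTR replicate 2). Of the 10 genes, 0 were called by edgeR (0% of the tested genes) and 0 by DESeq2 (0.0807% of its genes). At an unadjusted p under 0.05, 0 were higher and 1 lower, against 3.18% and 1.94% of the tested genes. Both anti-PD-1 libraries were above both CTR libraries for Myd88 and below them for Tlr1, Tlr4, Tlr6 and Tlr9, against 20.6% and 16.9% of the tested genes. The class medians were -0.18 for surface and -0.19 for endosomal receptors, beside 0.02 for all tested genes.

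In COMB against CTR, which gives both agents against vehicle, Tlr9 (ENSMUSG00000045322, chr9:106222598-106226883, plus strand) differed most by its p. It had 111 and 137 FPKM in CTR, 141 and 125 in OAT-1746, 111 and 106 in anti-PD-1, and 95.8, 87.6 and 90.6 in COMB. The 3 COMB libraries were the lowest of the 9. The log2 fold change was -0.44 (SE 0.15, 95% interval -0.78 to -0.10, unadjusted p = 0.0164, edgeR adjusted p = 0.740), and -0.29 without CTR replicate 2. Tlr4 was at 0.30 (SE 0.14, edgeR adjusted p = 0.753). edgeR called 0 of the 10 genes (0% of the tested genes) and DESeq2 0 (0.291% of its genes). At an unadjusted p under 0.05, 0 were higher and 1 lower, against 3.21% and 3.37%. All COMB libraries were above both CTR libraries for Tlr4 and below them for Tlr2 and Tlr9, against 12.1% and 15.8% of the tested genes. The class medians were -0.04 for surface and -0.11 for endosomal receptors, beside -0.0048 for all tested genes.

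COMB against anti-PD-1 shows OAT-1746 in mice that had the antibody. The surface receptors Tlr4 and Tlr6 had higher values here. Tlr4 had 18.7 and 18.2 FPKM in CTR, 20.1 and 22.2 in OAT-1746, 17.6 and 16.9 in anti-PD-1, and 20.4, 25.1 and 22.5 in COMB. Tlr6 had 13.1 and 14.5, 15.4 and 16.4, 12.3 and 10.7, and 13.2, 17.1 and 15 FPKM in the same order. For both, every COMB library was above both anti-PD-1 libraries. The log2 fold changes were 0.39 (SE 0.14, edgeR adjusted p = 0.602) for Tlr4 and 0.39 (SE 0.15, edgeR adjusted p = 0.649) for Tlr6. edgeR called 0 of the 10 genes (0% of the tested genes) and DESeq2 0 (0.392%). At an unadjusted p under 0.05, 2 of 10 were higher and 0 lower, against 1.98% and 5.26% of the tested genes. The class medians were 0.30 for surface and 0.05 for endosomal receptors, beside -0.01 for all tested genes. Tlr13 (chrX:106143204-106160493) had 75.5 and 103 FPKM in CTR, 99.7 and 108 in OAT-1746, 76.4 and 78.0 in anti-PD-1, and 87.8, 90.6 and 91.8 in COMB, with a log2 fold change of 0.22 (SE 0.16) in this comparison. Its COMB libraries lay above both anti-PD-1 libraries and between the CTR libraries. In all, 3 of the 10 genes (Tlr4, Tlr6 and Tlr13) had every COMB library above both anti-PD-1 libraries and 2 (Tlr9 and Myd88) had every one below, against 10% and 16.4% of the tested genes. Myd88 had a log2 fold change of -0.23, and -0.084 without COMB replicate 1.

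The interaction, (COMB minus anti-PD-1) minus (OAT-1746 minus CTR), asks whether the effect of OAT-1746 differed with the antibody. Tlr1 had the smallest p of the 10, with a log2 difference of 0.92 (SE 0.24, 95% interval 0.38 to 1.46, edgeR adjusted p = 0.0958, DESeq2 adjusted p = 0.0138, from 0.0138 to 0.400 over all alternatives). Its OAT-1746 difference was -0.71 without the antibody and 0.22 with it (0.34 without COMB replicate 1 and 0.096 without COMB replicate 2). Tlr7 had -0.78 (SE 0.32, edgeR adjusted p = 0.167) and Tlr8 1.35 (SE 0.63, edgeR adjusted p = 0.209). Leaving out OAT-1746 replicate 2 gave 0.88 for Tlr1, -0.63 for Tlr7 and 0.84 for Tlr8. Tlr7 was at -0.48 without CTR replicate 1 and -1.11 without CTR replicate 2, and Tlr8 at 2.19 without OAT-1746 replicate 1. edgeR called 0 of the 10 genes, against 0.359% of the tested genes, and DESeq2 called Tlr1 alone, against 8.78% of its genes. At an unadjusted p under 0.05, 1 was higher and 1 lower, against 11.8% and 14.4%. Without OAT-1746 replicate 1 edgeR called Tlr1 and Tlr8 (21.3% of the tested genes), without COMB replicate 1 it called Tlr1 (3.4%), and without OAT-1746 replicate 2 it called 0 of the 10. The medians were 0.26 for surface and -0.35 for endosomal receptors, beside -0.02 for all tested genes. The comparisons share libraries with each other, CTR above all, so that their values are not independent.

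The remaining receptors of the family were Tlr5, Tlr11 and Tlr12. Tlr12, which binds profilin of parasites, had 67.0 and 41.1 FPKM in CTR, 35.6 and 36.1 in OAT-1746, 28.6 and 46.7 in anti-PD-1, and 39.4, 56.1 and 51.9 in COMB. Tlr5, the flagellin receptor, had means of 4.72 ± 2.22 FPKM (SD, n = 2) in CTR and 7.34 ± 0.710 (n = 2) in OAT-1746, and Tlr11 had 2.40 FPKM in its highest library. edgeR called none of the 3 in any comparison, against 0% of all tested genes, or 0.359% in the interaction. The smallest unadjusted p was 0.0364, for Tlr12 in the interaction (0.98, SE 0.40).

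Co-receptors and trafficking factors of the pathway were followed as a list of 17 genes, each tested on its own. Cd14, the co-receptor that passes lipopolysaccharide to Tlr4, had a mean of 227 ± 30.2 FPKM in the CTR, 244 ± 17.1 in the OAT-1746 and 253 ± 23.9 in the anti-PD-1 libraries (SD, n = 2 each) and of 231 ± 4.15 (n = 3) in COMB. Ly96, the partner of Tlr4, had 11.3 ± 0.243, 10.7 ± 0.808, 13.99 ± 0.669 and 14.1 ± 1.64 FPKM in the same order. Unc93b1, which carries the endosomal receptors to their compartment, had 489 ± 29.9, 539 ± 25.4, 431 ± 34.7 and 489 ± 14.3 FPKM. Their log2 fold changes lay between -0.24 and 0.31 in the 5 comparisons. In OAT-1746 against CTR, edgeR called 0 of the 17, against 0% of all tested genes. At an unadjusted p under 0.05, 0 were higher and 2 lower, with a median of -0.19, against 16.1% and 16.2% of all tested genes. The smallest p-values were those of Lrrc59 (-0.76, SE 0.27), the protease Ctsb (-0.61, SE 0.22) and Slc15a4 (0.34, SE 0.19). Without OAT-1746 replicate 2 they were at -0.41, -0.34 and 0.19, and Ly96 was at 0.0036. Without OAT-1746 replicate 1, Lrrc59 was at -1.21 and Ctsb at -0.91, and Slc15a4 was at 0.56 without CTR replicate 1 and 0.15 without CTR replicate 2. Slc15a4, an endolysosomal transporter used by Tlr7 and Tlr9, also led in anti-PD-1 against CTR (0.66, SE 0.19, edgeR adjusted p = 0.951), followed by Ly96 (0.30) and Ctss (-0.33), and in COMB against CTR (0.45, SE 0.18), followed by Cd36 (0.51) and Ly96 (0.31). In the latter comparison, leaving out CTR replicate 1 or 2 gave 0.68 or 0.27 for Slc15a4 and 0.23 or 0.89 for Cd36. Cd36 led in COMB against anti-PD-1 (0.66, SE 0.25), before Ly86 (0.22) and Ctss (0.24, 0.35 without COMB replicate 1 and 0.13 without anti-PD-1 replicate 1). It also led in the interaction (0.86, SE 0.37, and 0.48 without CTR replicate 2), before Lrrc59 (0.80, 0.48 without OAT-1746 replicate 2 and 1.25 without replicate 1) and Ctss (0.59). In each of these last 4 comparisons edgeR and DESeq2 called 0 of the 17. Of all tested genes, edgeR called 0.359% in the interaction and 0% in the others. DESeq2 called 0.0807% of its genes in anti-PD-1 against CTR, 0.291% in COMB against CTR, 0.392% in COMB against anti-PD-1 and 8.78% in the interaction. In each of the 4, 1 of the 17 was higher and 0 lower at an unadjusted p under 0.05. The shares of all tested genes at that level, higher and then lower, were 3.18% and 1.94% in anti-PD-1 against CTR, 3.21% and 3.37% in COMB against CTR, 1.98% and 5.26% in COMB against anti-PD-1, and 11.8% and 14.4% in the interaction. DESeq2 called Ctsb in OAT-1746 against CTR, against 16.3% of its genes.

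The adaptors and kinases (22 genes) held a gene whose interaction passed the test. Ticam1, the adaptor of Tlr3 that also serves Tlr4, had 12.5 and 12.97 FPKM in CTR, 21.6 and 23.7 in OAT-1746, 16.5 and 13.5 in anti-PD-1, and 11.3, 11.02 and 11.98 in COMB. Its OAT-1746 libraries were the highest and its COMB libraries the lowest of the 9. The log2 fold change of OAT-1746 against CTR was 0.83 (SE 0.15, edgeR adjusted p = 0.0610), and the interaction was -1.22 (SE 0.20, edgeR adjusted p = 0.0495). The interaction was called in 6 of 18 alternatives (adjusted p from 0.000460 to 0.400). It was not called without OAT-1746 replicate 2 (-1.14, adjusted p = 0.114), CTR replicate 1 or 2, COMB replicate 2 or 3, or anti-PD-1 replicate 1 or 2 (-1.07 to -1.35, adjusted p up to 0.229). The replicate block ended the call too (edgeR adjusted p = 0.400). Irak4 (-0.57, SE 0.17) and the ubiquitin ligase Peli1 (0.51, SE 0.17) followed in OAT-1746 against CTR, where 3 of the 22 were higher and 4 lower at an unadjusted p under 0.05 (median 0.09), against 16.1% and 16.2% of all tested genes. Ticam1 was at 0.77, Irak4 at -0.47 and Peli1 at 0.28 without OAT-1746 replicate 2, and Irak4 at -0.33 without CTR replicate 1. In COMB against anti-PD-1, 0 were higher and 5 lower (median -0.14), against 1.98% and 5.26%, led by Peli1 (-0.45), Irak2 (-0.35) and Ticam1 (-0.39, and -0.25 without anti-PD-1 replicate 1). In the interaction 1 was higher and 5 lower, against 11.8% and 14.4%, with Peli1 (-0.95, edgeR adjusted p = 0.0875) and Irak2 (-0.53) after Ticam1. In anti-PD-1 against CTR (Ticam1 0.24, Tirap 0.26, Irak2 0.19) and in COMB against CTR (Ticam2 -0.32, Traf3 -0.46, Tab1 -0.40), 0 of the 22 had an unadjusted p under 0.05, against 3.18% of all tested genes higher and 1.94% lower in the former and 3.21% and 3.37% in the latter. Without 1 library, the former gave 0.090 and 0.37 for Ticam1 (anti-PD-1 replicates 1 and 2) and 0.14 for Tirap (CTR replicate 2), and the latter -0.24 for Traf3 (CTR replicate 1) and -0.65 and -0.053 for Tab1 (CTR replicates 1 and 2). edgeR called 1 of the 22 in all, the interaction of Ticam1, against 0.359% of all tested genes in the interaction. DESeq2 called Ticam1 and Irak4 in OAT-1746 against CTR and Ticam1 and Peli1 in the interaction, against 16.3% and 8.78% of its genes. It called 0 of the 22 in anti-PD-1 against CTR (0.0807% of its genes), COMB against CTR (0.291%) and COMB against anti-PD-1 (0.392%).

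A further list held 18 genes grouped under the name of inhibitors of the pathway. That name does not show how each gene acted in these cells, which was not tested. In this list the IκB family gene Nfkbiz had the smallest p in every comparison but anti-PD-1 against CTR. It had 50.3 and 49.7 FPKM in CTR, 116 and 202 in OAT-1746, 45.9 and 73.4 in anti-PD-1, and 19.7, 18.6 and 20.5 in COMB. The OAT-1746 libraries were above, and the COMB libraries below, all libraries of the other groups. The log2 fold change of OAT-1746 against CTR was 1.67 (SE 0.29, edgeR adjusted p = 0.0610), and that of COMB against anti-PD-1 was -1.61 (SE 0.26, edgeR adjusted p = 0.336). The interaction of -3.27 (SE 0.39, edgeR adjusted p = 0.0289) passed the test and was called in 12 of 18 alternatives (adjusted p from 4.52e-12 to 0.218), 1 of them without OAT-1746 replicate 2 (-2.80, edgeR adjusted p = 0.0163). It was not called without CTR replicate 1 or 2, COMB replicate 2 or 3, or anti-PD-1 replicate 2 (-2.89 to -3.27, adjusted p from 0.0993 to 0.218). The replicate block ended the call too (edgeR adjusted p = 0.207). Nfkbia (0.96, SE 0.20) and Nfkbid (1.69, SE 0.45) followed in OAT-1746 against CTR, where 5 of the 18 were higher and 2 lower at an unadjusted p under 0.05 (median 0.22), against 16.1% and 16.2% of all tested genes. Without OAT-1746 replicate 2 they were at 0.89 and 0.69, and Nfkbiz at 1.22. Nfkbid had 30.4 FPKM in OAT-1746 replicate 1 and 92.2 in replicate 2. In COMB against CTR 0 were higher and 3 lower, namely Nfkbiz (-1.36), Zc3h12a (-1.15) and Nfkbid (-1.25), against 3.21% and 3.37%. In COMB against anti-PD-1 0 were higher and 4 lower (median -0.22), against 1.98% and 5.26%, with Nfkbid (-1.47) and Tnfaip3 (-0.84, and -0.36 without anti-PD-1 replicate 2) after Nfkbiz. In the interaction 0 were higher and 6 lower, against 11.8% and 14.4%, with Nfkbid (-3.17, and -2.14 without OAT-1746 replicate 2) and Nfkbia (-1.36). Anti-PD-1 against CTR had 2 higher, Nfkbia (0.55) and Socs1 (1.08, and 0.71 without CTR replicate 2), and 0 lower, with Sigirr at 0.70 (0.40 without anti-PD-1 replicate 1), against 3.18% and 1.94%. Besides the interaction of Nfkbiz (0.359% of all tested genes were called there), edgeR called 0 of the 18 in any comparison. DESeq2 called 6 in OAT-1746 against CTR (16.3% of its genes), 0 in anti-PD-1 against CTR (0.0807%), Nfkbiz in COMB against CTR (0.291%) and against anti-PD-1 (0.392%), and 5 in the interaction (8.78%).

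Of 22 target genes of the pathway, 19 passed the low-count filter. Tnf, a cytokine gene that these receptors induce, had 75.0 and 92.3 FPKM in CTR, 107 and 102 in OAT-1746, 57.9 and 91.5 in anti-PD-1, and 28.4, 26.3 and 22.5 in COMB. The COMB libraries were the lowest of the 9, with no overlap with any other group. The log2 fold change was -1.70 (SE 0.20, edgeR adjusted p = 0.184) for COMB against CTR and -1.54 (SE 0.20, edgeR adjusted p = 0.206) for COMB against anti-PD-1, and DESeq2 called both. The interaction was -1.86 (SE 0.31, edgeR adjusted p = 0.0495), and without OAT-1746 replicate 2 it was -1.88 with an edgeR adjusted p of 0.0666. It was called in 8 of 18 alternatives (adjusted p from 3.75e-05 to 0.382), and was also not called without CTR replicate 1 or 2, COMB replicate 2 or 3, or anti-PD-1 replicate 2 (-1.49 to -2.01, adjusted p from 0.161 to 0.228). The replicate block ended the call too (edgeR adjusted p = 0.382). The chemokine genes Ccl3 and Ccl4 had -1.50 and -1.31 in COMB against anti-PD-1 and -2.22 and -2.05 in the interaction (edgeR adjusted p = 0.0830 and 0.0736; -1.44 and -1.42 without OAT-1746 replicate 2), and in COMB against CTR Ccl3 had -1.54 and Cxcl1 -1.86 (-1.01 without CTR replicate 2, on counts of 15 and 40 in CTR). At an unadjusted p under 0.05, 0 of the 19 were higher and 6 lower in COMB against anti-PD-1 (median -0.56), against 1.98% and 5.26% of all tested genes. In the interaction it was 0 and 7 (median -0.11), against 11.8% and 14.4%, and in COMB against CTR 2 and 5 (median -0.30), against 3.21% and 3.37%. The 2 higher genes, named after their values were seen, were Nos2 (2.93, SE 0.91, edgeR adjusted p = 0.712) and Ccl5 (1.13, SE 0.40, edgeR adjusted p = 0.747). Nos2, the inducible nitric oxide synthase, had 3.84 and 4.42 FPKM in CTR, 6.55 and 3.73 in OAT-1746, 3.63 and 16.1 in anti-PD-1, and 5.21, 41.6 and 47.6 in COMB, where replicate 1 was below OAT-1746 replicate 1. In OAT-1746 against CTR it was 1 higher, Ccl4 (0.74), and 1 lower, Il12b (-1.81), with Cxcl10 at -0.91, against 16.1% and 16.2% of all tested genes. These values were 0.14 for Ccl4, -1.45 for Il12b and -0.27 for Cxcl10 without OAT-1746 replicate 2. Ccl4 was at 1.16 and Cxcl10 at -2.05 without OAT-1746 replicate 1, and Ccl4 at 0.48 without CTR replicate 2. In anti-PD-1 against CTR it was 1 higher, Il6 (0.75), before Ccl5 (0.83) and Ccl4 (0.54, 0.84 without CTR replicate 1 and 0.28 without CTR replicate 2), and 0 lower, against 3.18% and 1.94%. Besides the interaction of Tnf (0.359% of all tested genes were called there), edgeR called 0 of the 19 in any comparison. DESeq2 called Il12b in OAT-1746 against CTR (16.3% of its genes), 0 in anti-PD-1 against CTR (0.0807%), 2 in COMB against CTR (0.291%), 3 in COMB against anti-PD-1 (0.392%) and 4 in the interaction (8.78%).

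Marker genes of cell types were followed in the same comparisons. Of the lists named here edgeR called 0 genes, against 0% of all tested genes, or 0.359% in the interaction. From them DESeq2 called Vcan lower in COMB against anti-PD-1 (0.392% of its genes) and Klre1 lower in the interaction (8.78%). In COMB against CTR it called 0 (0.291%). In COMB against anti-PD-1, 9 of 10 monocyte and macrophage genes (median -0.47, 1 at an unadjusted p under 0.05) and 7 of 7 NK cell genes (median -1.10, 2 at that level) were lower, and 6 of 9 neutrophil genes were higher (median 0.53, 4 at that level), against 5.26% of all tested genes lower and 1.98% higher at that level. In the interaction, 10 of 10 microglial genes (median -0.88, 4 at that level) and 7 of 7 NK cell genes (median -1.22, 2 at that level) were lower, against 14.4%. In COMB against CTR, 7 of 7 NK cell genes (median 1.41, 4 at that level), 6 of 9 neutrophil genes (median 0.25, 3 at that level) and 3 of 4 astrocyte genes (median 1.26, 3 at that level) were higher, against 3.21%. Endothelial genes also had 3 of 4 higher there (median 0.32, 2 at that level). NK cell genes summed to 25.2 and 23.7 FPKM in CTR, 37.5 and 11.7 in OAT-1746, 157 and 79.3 in anti-PD-1, and 33.8, 74.3 and 78.8 in COMB. Neutrophil genes summed to 161 and 294 FPKM in CTR, 289 and 430 in OAT-1746, 222 and 189 in anti-PD-1, and 310, 356 and 324 in COMB. Each COMB library was thus above both anti-PD-1 libraries in the neutrophil sum and below both in the NK cell sum, there by 78.8 against 79.3 FPKM at the closest. The part of these cell types in the values of the pathway genes was not tested.

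**Figure D5:**
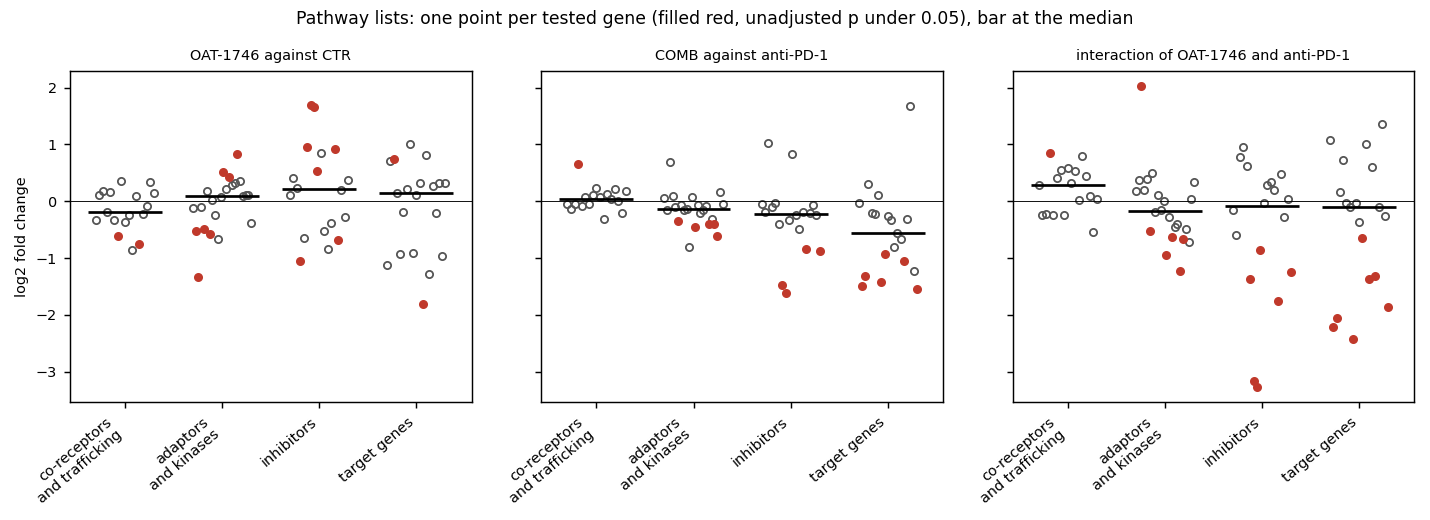
Log2 fold change of every tested gene of the 4 pathway lists (1 point per gene, filled red at an unadjusted p under 0.05, bar at the list's median) in 3 comparisons. In COMB against anti-PD-1 the target genes have a median of -0.56 and the co-receptors one of 0.04.

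Other cell types were followed by their markers, as the mean sum of FPKM per group, with CTR first, then OAT-1746, then anti-PD-1 and COMB last. Neutrophil genes, led by S100a9, had group means of 228, 359.6, 206 and 330.0. BAM genes, led by Ms4a7, had 187, 138, 157 and 173. In OAT-1746 against CTR, 4 of the 7 BAM genes were higher and 3 lower (median 0.34), and Ms4a7 had 68.4 and 68.7 FPKM in CTR and 25.8 and 7.36 in OAT-1746. Dendritic cell genes, led by Cd209a, had 46.5, 46.7, 58.3 and 52.7. Plasmacytoid dendritic cells, which are rich in Tlr7 and Tlr9, had markers at 6.04, 5.76, 8.12 and 6.60, with 2 of 5 genes above 3 counts in every library. B cell genes had 115, 178, 117 and 113, nearly all of it Ighm, with 2 of 6 above 3 counts in every library. NK cell genes, led by Gzma, had 24.5, 24.6, 118 and 62.3, and 7 of 7 were higher in anti-PD-1 than in CTR at an unadjusted p under 0.05, against 3.18% of all tested genes. edgeR called 0 of the 7 (0% of all tested genes) and DESeq2 3 (0.0807% of its genes). T cell genes had 2.42, 2.61, 3.36 and 2.98, with 1 of 5 above 3 counts in every library. In COMB against CTR 2 of the 3 tested were higher, 1 at an unadjusted p under 0.05, against 3.21% of all tested genes. Astrocyte (3.17, 4.43, 4.16 and 5.17), oligodendrocyte (31.4, 38.2, 31.3 and 39.4) and endothelial genes (19.2, 26.5, 29.4 and 33.2) were low beside the microglial list. No gene of these lists had 0 counts in all 9 libraries.

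Likeness of pattern was measured over the 9 libraries as Pearson's r of log2 CPM, as a description. Between single members, surface pairs ran from 0.86 (Tlr4 and Tlr6) and 0.74 (Tlr1 and Tlr2) through 0.016 (Tlr1 and Tlr6) to -0.43 (Tlr2 and Tlr6). Of the endosomal pairs, Tlr3 and Tlr7 had 0.92 and Tlr7 and Tlr8 -0.84. Across the classes, Tlr2 and Tlr8 had 0.88. Myd88 had 0.80 with Tlr8 and -0.94 with Tlr3. Outside the family and the lists, Cenpt (0.97), Spcs2 (0.95), Cox7a2l (0.95), Cnot9 (0.94) and Tex10 (0.94) were most like the mean z-score of the surface class, and Srsf5 (0.97), Stox2 (0.96), Srr (0.95), Smpd3 (0.95) and Add1 (0.95) most like that of the endosomal class. These had the highest r among the tested genes, over 9 libraries that share treatments. With the surface mean, of which they are part, Tlr1 had 0.75, Tlr4 0.64, Tlr6 0.60 and Tlr2 0.40, and the endosomal Tlr8 had 0.61. With the endosomal mean, Tlr3 had 0.92, Tlr13 0.87, Tlr7 0.81, Tlr9 0.80 and Tlr8 -0.45. A gene like a class mean is therefore not like each receptor of that class.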

How the data were processed

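RNA-seq of sorted CD11b+ cells gave 9 libraries, 3 of COMB and 2 of each other group. The authors deposited raw counts of read pairs per gene. Their methods name Trimmomatic for trimming, STAR for alignment to mm10, Picard for duplicates and HTSeq for counting in paired, reverse stranded mode at a mapping quality of 10 or more. Read pairs that map equally well to paralogs are therefore missing from the counts.

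Of 53801 identifiers, 53620 matched GENCODE M21 (GRCm38), 21890 of them protein-coding. edgeR 4.0.16 in R 4.3.3 kept 12538 (filterByExpr, minimum count 10), normalized by TMM and estimated a mean per group in its quasi-likelihood model. The steps were tested on simulated counts. The common coefficient of biological variation was 0.214. Alternatives were DESeq2 1.42.0, DESeq2 size factors, library size only, other filters, all genes, a replicate block, robust estimation, limma 3.58.1 voom with quality weights, fits of the groups compared, and leaving out each library. The shares of the surface class were recomputed with coding length, as were, after the data were seen, the members' mean levels.

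FPKM used exon-union length. Log2 CPM had a prior count of 2. Genes were named by rule: all 10 members, the 3 genes with the smallest p in each pathway list and comparison, and Cd14, Ly96 and Unc93b1. Nos2 was named outside this rule, as was Ccl5 for COMB against CTR. The levels of Ms4a7, the most abundant BAM gene, were also given outside it. The level of 1 marker gene is not reported here. Members and lists were chosen with earlier results of these data known. Python 3.11.15 with matplotlib 3.10.9 drew the figures.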

Additional observations from a re-analysis of the deposited data

Results flagged for a closer look

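The effect of OAT-1746 differed with the antibody, by the interaction test in edgeR over all 12538 tested genes, for 3 genes of the pathway lists and for 0 of the 10 members, against 0.359% of all tested genes. By list, they were 1 of 22 tested adaptors and kinases, 1 of 18 genes listed as inhibitors and 1 of 19 target genes. There were 0 of 17 co-receptors and trafficking factors. The log2 difference was -3.27 for Nfkbiz, -1.86 for Tnf and -1.22 for Ticam1, with edgeR adjusted p-values of 0.0289, 0.0495 and 0.0495. OAT-1746 against CTR gave 1.67, 0.32 and 0.83 in this order, and COMB against anti-PD-1 gave -1.61, -1.54 and -0.39. For each of the 3 genes, 2 of 2 OAT-1746 libraries were above both CTR libraries, as for 30.8% of all tested genes. Likewise, 3 of 3 COMB libraries were below both anti-PD-1 libraries, as for 16.4% of them. The 3 genes were chosen by their interaction, which favors this pattern. Over 18 alternatives all 3 kept a negative difference. Nfkbiz was called in 12 of them (adjusted p from 4.52e-12 to 0.218), Tnf in 8 (3.75e-05 to 0.382) and Ticam1 in 6 (0.000460 to 0.400). The lowest p-values came from DESeq2. All 3 lost their call without CTR replicate 1 or 2, COMB replicate 2 or 3, or anti-PD-1 replicate 2. They also lost it with the replicate block (edgeR adjusted p = 0.207 for Nfkbiz, 0.382 for Tnf and 0.400 for Ticam1). Without OAT-1746 replicate 2 the adjusted p was 0.0163 for Nfkbiz, 0.0666 for Tnf and 0.114 for Ticam1. In the interaction 10 of 10 microglial genes (median -0.88, 4 at an unadjusted p under 0.05) and 7 of 7 NK cell genes (median -1.22, 2 at that level) were lower, against 14.4% of all tested genes lower at that level, and the part of these cell types in the 3 differences was not tested.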

How the results depend on the processing

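The count of called genes depended on the test, and the cause was not tested. DESeq2 called 1923 genes for OAT-1746, 11 for anti-PD-1, 37 for COMB, 45 for COMB against anti-PD-1 and 982 for the interaction, where edgeR called 0, 0, 0, 0 and 45, and it called 1 member (Tlr1) for OAT-1746 and 1 (Tlr1) for the interaction. Without a low-count filter edgeR called 587, 2 and 2 genes for OAT-1746, COMB and COMB against anti-PD-1, and 146 for the interaction. limma voom called 2 for COMB, 35 for COMB against anti-PD-1 and 428 for the interaction. Fits of only the groups compared called 5 and 2 for COMB and COMB against anti-PD-1. The interaction had 24 genes with library size only and 18 with all genes.

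The replicate numbers did not pair the libraries: deviations of same-numbered libraries had an r of -0.320 to 0.0833 between groups. With the replicate block the interaction had 0 called genes (adjusted p = 0.207 for Nfkbiz, 0.382 for Tnf and 0.400 for Ticam1), and no other count of calls changed.

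Leaving out a library gave 0 to 3617 called genes and 0 to 5 members for OAT-1746, 0 to 52 genes for COMB against anti-PD-1, and 0 to 2733 genes and 0 to 2 members for the interaction, with the highest values without OAT-1746 replicate 1. The lone library of a group was assumed to vary like the others.

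Of 940 values of the members' log2 fold changes under the alternatives, 905 kept their sign and their side of the threshold, 10 became called and 25 changed sign. All that changed sign were uncalled. Over the left-out libraries, Tlr9 ranged from -0.032 to 0.25 for OAT-1746. For anti-PD-1, Tlr2 ranged from -0.38 to 0.23, Tlr3 from -0.39 to 0.13, Tlr7 from -0.14 to 0.48 and Tlr13 from -0.41 to 0.028. For COMB, Tlr3 ranged from -0.32 to 0.18, Tlr7 from -0.21 to 0.38, Tlr8 from -0.31 to 0.084, Tlr13 from -0.16 to 0.25 and Myd88 from -0.21 to 0.16, and voom gave 0.061 for Tlr8 and 0.046 for Myd88. For COMB against anti-PD-1, Tlr2 ranged from -0.45 to 0.16, Tlr3 from -0.030 to 0.12 and Tlr8 from -0.10 to 0.79. The interaction of Tlr13 ranged from -0.23 to 0.22, and was -0.086 with library size only and -0.021 with the replicate block. Of 1409 such values of the named pathway genes, 1294 were the same in this sense, 73 became called, 28 lost their call and 14 changed sign, all for Cd14, Ly96 and Unc93b1. For OAT-1746, Cd14 ranged from -0.013 to 0.24 and Ly96 from -0.17 to 0.0036 (0.0026 with library size only). For COMB, Cd14 ranged from -0.079 to 0.16 and Unc93b1 from -0.034 to 0.062 (-0.0017 with all genes). For COMB against anti-PD-1, Ly96 ranged from -0.051 to 0.11 (-0.028 with the replicate block). The interaction of Unc93b1 ranged from -0.027 to 0.13 (-0.050 with library size only).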
